A study of Mus musculus with 2 samples.

Results

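Rod bipolar cells are the interneurons that carry rod signals from the outer to the inner retina. They were chosen by measured transcripts among 62485 kept barcodes. A barcode passed the gate if it held at least 1 unique molecular identifier (UMI, 1 counted transcript molecule) of Prkca and at least 3 of 8 positive genes. These were Car8, Pcp2, Trpm1, Grm6, Sebox, Vstm2b, Strip2 and Lrrtm4. It also had to hold no UMI of Grik1, Vsx1, Neto1, Slc6a9, Gad1, Rpe65, C1qa, Cldn5 or Dcn, genes of other bipolar, amacrine, pigment epithelial, microglial, endothelial and fibroblast cells. The gate took 5612 barcodes. The GFP-labelled library gave 3660 of 39285, or 9.32% (95% exact Clopper-Pearson interval 9.03 to 9.61), and the sponge-labelled library gave 1952 of 23200, or 8.41% (8.06 to 8.78). Because these genes chose the cells, their levels are given as a description.

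Both libraries came from the optic cup of Abca4KO mice, which lack a transporter of photoreceptor outer segments and model the inherited macular dystrophy Stargardt disease. Per the series' design text, 1 eye received a subretinal vector carrying a sponge for miR-181a/b (AAV2.8-Sponge.mir181) and the other eye a control vector (AAV2.8-GFP). Such a sponge RNA repeats the sequence a microRNA pairs with and so draws it away from its targets. Injection was at 2 months and collection 4 months later per that text, but the labels of the samples state 4 months of age. How many mice were used is not stated, no uninjected or wild-type eye is included, and the promoter of the vectors is not stated. Each group was 1 library of cells dissociated with papain and captured with 10x Genomics 3′ chemistry. No difference below was therefore tested. Intervals are 95% intervals for counting error, and differences between mice, eyes, injections or dissociations are not covered by them.

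A rod bipolar cell receives glutamate from rods at its dendrites. In darkness the receptor mGluR6 (Grm6) acts through the G protein Go to keep the cation channel TRPM1 closed, and in light the channel opens and the cell depolarizes. Its axon ends in ribbon synapses that drive AII amacrine cells and receives GABA and glycine feedback. Protein kinase C alpha (Prkca) is its classical marker.

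The sponge is directed against miR-181a and miR-181b, so their mature sequences are shown as annotated in RefSeq (build GRCm38.p6), with the seed, bases 2 to 8 from the 5′ end, in capitals. The related miR-181c and miR-181d are shown because they carry the same seed and differ only outside it.
mmu-miR-181a-5p: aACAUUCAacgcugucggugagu
mmu-miR-181b-5p: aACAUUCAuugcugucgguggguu
mmu-miR-181c-5p: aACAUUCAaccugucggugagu
mmu-miR-181d-5p: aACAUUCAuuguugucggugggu
The first lies at chr1:137966468-137966490 and the second at chr1:137966650-137966673, both on the plus strand, and each has a further copy on chromosome 2. The 7 letters that pair with the seed are TGAATGT. Sites with these letters were found in the 3′ UTRs of several reported miR-181 targets measured below. They are shown as 30 bases each, with the seed match in capitals, because the values of their genes are compared between the libraries.
Xiap, chrX:42105005-42105034: tcttcttgctctaatTGAATGTgtgatggg
Xiap, chrX:42107028-42107057: ctaggactcaaggacTGAATGTtttcaaat
Bcl2, chr1:106539823-106539852, minus strand: tataataatcaggacTGAATGTagataatg
Sirt1, chr10:63320554-63320583, minus strand: tagcatgtcaaaaaaTGAATGTttacttgt
Tfam, chr10:71225655-71225684, minus strand: gcttaagagataaaaTGAATGTattactca
These windows share the 7 capitals and little else. A match of letters does not show that a site is used.

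The gated barcodes were a mixture, and 36.4% of them in the GFP-labelled library and 35.9% in the sponge-labelled library fell in clusters that resembled rod bipolar cells. Barcodes of both libraries were clustered together without the rule genes and without mitochondrial genes, which gave 11 clusters, numbered from 0. The 8 marker genes, Prkca, Car8, Pcp2, Trpm1, Grm6, Sebox, Vstm2b and Strip2, summed to 17714 counts per 1000000 UMIs (CPM) in cluster 3 and 12261 CPM in cluster 6. The next highest cluster, number 2, had 6226 CPM. Clusters with at least 50% of the highest sum are called rod bipolar-like here, a limit set after the clusters were seen. Clusters 3 and 6 met it and held 1334 barcodes of the GFP-labelled library (95% Clopper-Pearson interval of the share 34.9 to 38.0) and 700 of the sponge-labelled library (33.7 to 38.0). At a finer resolution, 1298 and 699 of these barcodes were again in the clusters that met the limit.

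Bipolar cell genes that the rule did not use were also found in these clusters, some at levels shared with clusters 1 and 2. Isl1, a transcription factor of ON bipolar cells, stood at 496 CPM in cluster 3 and 315 CPM in cluster 6, against 222 and 312 CPM in clusters 1 and 2. Otx2, shared with photoreceptors, stood at 280.4 and 255 CPM against 273 and 249 CPM. Cabp5, a calcium-binding protein of bipolar cells, stood at 861 and 516 CPM, against 386 and 191 CPM. Lrrtm4, a rule gene that organises synapses of these cells, and Ptprr were among the leading genes of both clusters. Cluster 6 was led by Hbb-bs, a haemoglobin gene of red blood cells, at 602 CPM against 208 CPM in cluster 3. These are genes of the cells that were clustered and so describe the clusters without a test.

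The other clusters were led by genes of other cells. Cluster 0 had Glul, the glutamine synthetase of Müller glia, at 3422 CPM. Clusters 1 and 2 were led by Cntn5 and Lrp1b and had Scgn, a gene of cone bipolar cells, at 153 and 127 CPM against 23.4 CPM in cluster 3. Cluster 4 was led by Dpp10 and Pdzph1, and cluster 8 had the cone arrestin Arr3 at 3249 CPM. Clusters 5 and 7 were led by genes such as Gpnmb, Mlana and Tyrp1, and the pigment gene Dct reached 14569 CPM in cluster 7. Cluster 9 was led by Rgs5 and Mgp, genes of mural cells, with the T cell gene Cd3g. Cluster 10 was led by the corneal keratin Krt12, at 9959 CPM. In total 2326 barcodes of the GFP-labelled library and 1252 of the sponge-labelled library passed the gate outside clusters 3 and 6.

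**Figure D1:**
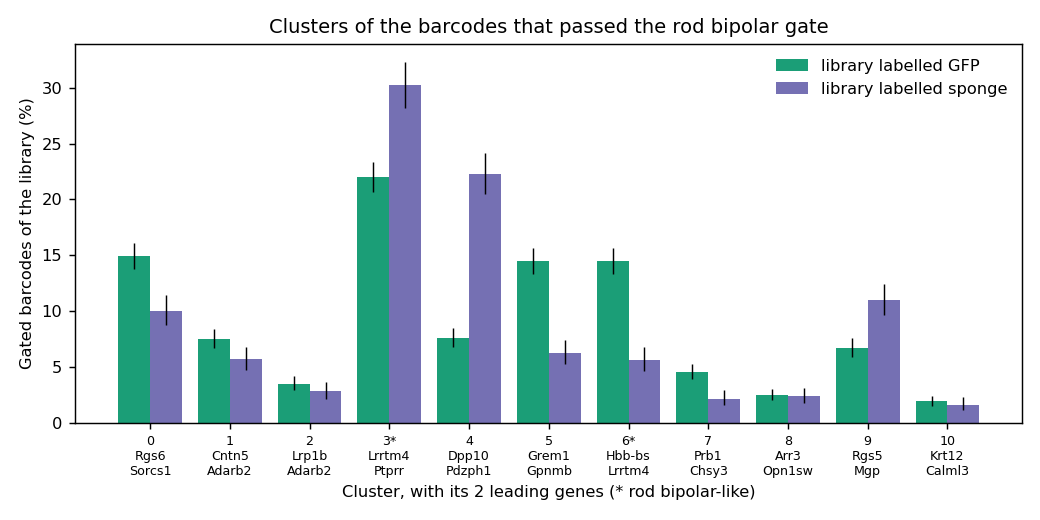
Share of each library's gated barcodes (percent, vertical axis) in each of 11 clusters drawn without the rule genes (horizontal axis, with the 2 leading genes of each), and bars of the 95% Clopper-Pearson interval. Clusters 3 and 6, marked with a star, hold the rod bipolar-like barcodes, at 22.0% and 14.5% in the GFP-labelled library and 30.2% and 5.64% in the sponge-labelled library.

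The number of positive genes in a barcode went with its cluster. All of these genes but Lrrtm4 are in the marker sum by which clusters were called rod bipolar-like, so this describes the choice. Of barcodes with 3 positive genes, the fewest the rule admits, 9.92% in the GFP-labelled library and 1.42% in the sponge-labelled library were rod bipolar-like. Of barcodes with all 8, 60.0% of 60 and 89.4% of 368 were. Their median depth was 3451 and 7825 UMIs, against 2214.5 and 2895 UMIs at 3 genes. Just outside the limit, 1919 barcodes of the GFP-labelled library and 1702 of the sponge-labelled library had 2 positive genes. Their Prkca level was 754 and 611 CPM, against 1047 and 568 CPM in the barcodes just inside. The median number of Prkca UMIs was 2 at 3 genes in both libraries, and 15 and 52 at 8 genes. The lower end of the gate thus held barcodes with little Prkca in both libraries.

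**Figure D2:**
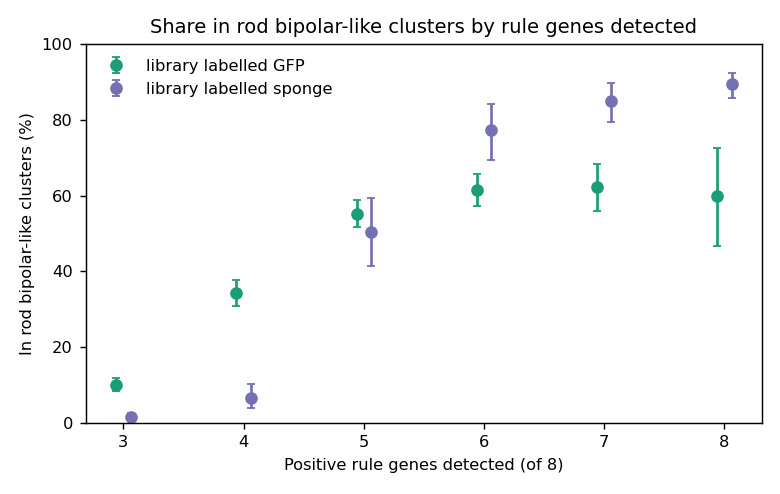
Percent of gated barcodes in the rod bipolar-like clusters (vertical axis) by the number of the 8 positive genes detected (horizontal axis), with 95% Clopper-Pearson intervals. The share goes from 9.92% at 3 genes to 60.0% at 8 genes in the GFP-labelled library, and from 1.42% to 89.4% in the sponge-labelled library. All of these genes but Lrrtm4 are in the marker sum that named the clusters, so the rise describes the choice.

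Transcripts of the rule genes were also found in cells that should lack them. In barcodes gated as microglia or macrophages, 63.5% of 1197 in the GFP-labelled library and 60.4% of 776 in the sponge-labelled library had a Prkca UMI, at 849 and 758 CPM. Their median depth was 3354 and 4894 UMIs, against 2285.5 and 5945.5 UMIs in the rod bipolar-like clusters. With every cell thinned to 1000 UMIs, Prkca was detected in 96.7% and 99.3% of rod bipolar-like barcodes and in 36.3% and 25.8% of the microglia or macrophages. Lrrtm4 differed more, at 93.6% and 97.8% against 20.9% and 11.1%. Sebox was found in 13.1% and 31.4% against 2.62% and 3.27%. A single UMI of Prkca was thus common in cells of another type. The rod bipolar-like barcodes had to hold a Prkca UMI, so their higher shares describe the choice. The exclusion genes were often found together with rule genes. Of the 14047 and 6091 barcodes with Prkca and at least 3 positive genes, they removed 73.9% and 68.0%, and Grik1 was present in 42.0% and 34.6%. How many of the removed barcodes were cells of the excluded types was not tested.

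The libraries differed in depth and in their labels. The median depth of the gated barcodes was 2527 UMIs in the GFP-labelled library and 4570 in the sponge-labelled library, and the median mitochondrial share was 11.3% and 8.10%. Both differences were present in the rod bipolar-like clusters, with mitochondrial medians of 12.2% and 8.28%. The deposited features include eGFP, named in the control vector, and whether the sponge vector carries it is not stated. In the rod bipolar-like clusters it was found as 1 UMI in 1 of 1334 barcodes of the GFP-labelled library and in 12 of 700 barcodes (1.71%, Clopper-Pearson interval 0.889 to 2.98) of the sponge-labelled library. Over the gate it was in 1 and 45 barcodes, and outside the gate in 9 of 35625 and 657 of 21248. The control library is thus the lower one, so groups are named only by label and every direction below rests on them. Transcripts of Abca4, the gene labelled as knocked out, were detected in both libraries, at 62.7 and 47.7 CPM in the gate and 73.1 and 56.9 CPM outside it. Counts per gene do not show whether they come from the deleted part. There were 290 barcode sequences deposited in both libraries and 0 among the gated barcodes.

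Because the gate is a mixture, ratios are given both for all gated barcodes and for the rod bipolar-like clusters. UMIs were summed over the barcodes of each library and scaled to CPM, and log2 ratios set the sponge-labelled library over the other, so 1 means 2-fold higher. In the gate 16977 genes had at least 20 counts, with a median log2 ratio of 0.08. Of these 58.9% were above 0, 3.24% at least 2-fold higher and 3.17% at least 2-fold lower in the sponge-labelled library. In the rod bipolar-like clusters 13109 genes were measured, with a median of 0.04. There 53% were above 0, 1.59% at least 2-fold higher and 9.03% at least 2-fold lower. The mix of these clusters differed between the libraries. Cluster 3 held 805 barcodes of the GFP-labelled library and 590 of the sponge-labelled library, and cluster 6 held 529 and 110. Cluster 6 had less Prkca than cluster 3, 4800 against 6607 CPM, and more of the rod gene Pde6a, 492 against 135 CPM. In cluster 3 alone, 259 of 11983 measured genes were at least 2-fold higher and 878 at least 2-fold lower. The part of this mix in the ratios was not tested. The cells of these clusters differed in depth, so ratios were also formed from the clusters' barcodes of 1500 to 3000 UMIs, 945 of the GFP-labelled library and only 71 of the sponge-labelled library. These are called the depth-matched barcodes, and counting error on the sponge side is large there.

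Some genes outside the rule set the rod bipolar-like clusters apart from cone bipolar cells and rods in both libraries. They were ranked by the smaller of the 2 libraries' ratios of CPM to the highest of 3 reference gates, ON cone bipolar, OFF cone bipolar and rods. None of these gates admits a barcode with a Prkca UMI, whereas every rod bipolar-like barcode holds one. Spag16, a gene of ciliary axonemes, stood at 174 CPM in the GFP-labelled library and 193 CPM in the sponge-labelled library, 25.4-fold and 22.4-fold over the references. In microglia or macrophages, which were not chosen to lack Prkca, Spag16 stood at 23.7 and 8.53 CPM. Outside the gate it stood at 29.5 and 19.8 CPM. Tmem196, a membrane protein gene, stood at 258 and 366 CPM, 16.7-fold and 16.2-fold over them. The chondroitin sulphate synthesis gene Csgalnact1 stood at 129 and 205 CPM, 12.6-fold and 20.9-fold. These ratios chose the 15 genes and are given as a description.

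Ion channel genes were among the 15. Asic2, an acid-sensing cation channel subunit, stood at 2044 and 3091 CPM, 10.1-fold and 23.6-fold over the references. In microglia or macrophages it stood at 430 and 278 CPM, and outside the gate at 500 and 471 CPM. Kcnh5, a voltage-gated potassium channel, stood at 599 and 958 CPM, 9.62-fold and 18.5-fold. Ano3, of the anoctamin family, stood at 192 and 336 CPM, 9.76-fold and 34.3-fold. Il1rap, the accessory chain of the interleukin-1 receptor, stood at 381 and 553 CPM, 9.30-fold and 18.8-fold. All 15 genes stayed at least 2-fold above the references when cells were thinned to 1000 UMIs. The same genes and barcodes were used there, so this describes the choice too.

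Several of the 15 lie on or beside rule genes and may share their reads. The noncoding Gm11655 (chr11:108181850-108194126, plus strand), 26.2-fold and 33.6-fold over the references, lies inside Prkca (chr11:107933387-108343928, minus strand). Cep112 is a neighbour of Prkca, and A230077H06Rik overlaps the start of Vstm2b on chromosome 7. Likewise 5530401A14Rik lies inside Asic2 on the opposite strand, and Gm28307 inside A230077H06Rik. Whether the counting used strand is not stated, so the values of these overlapping genes are uncertain. RefSeq promoters (GRCm38.p6, 250 bases before to 50 after the start) were matched for 10 of the 15 genes. The letters TAATCC, bound by the homeobox factors CRX and OTX2, were on either strand in 1 of the 10, Ano3, and in 7.16% of 27025 promoters.

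**Figure D3:**
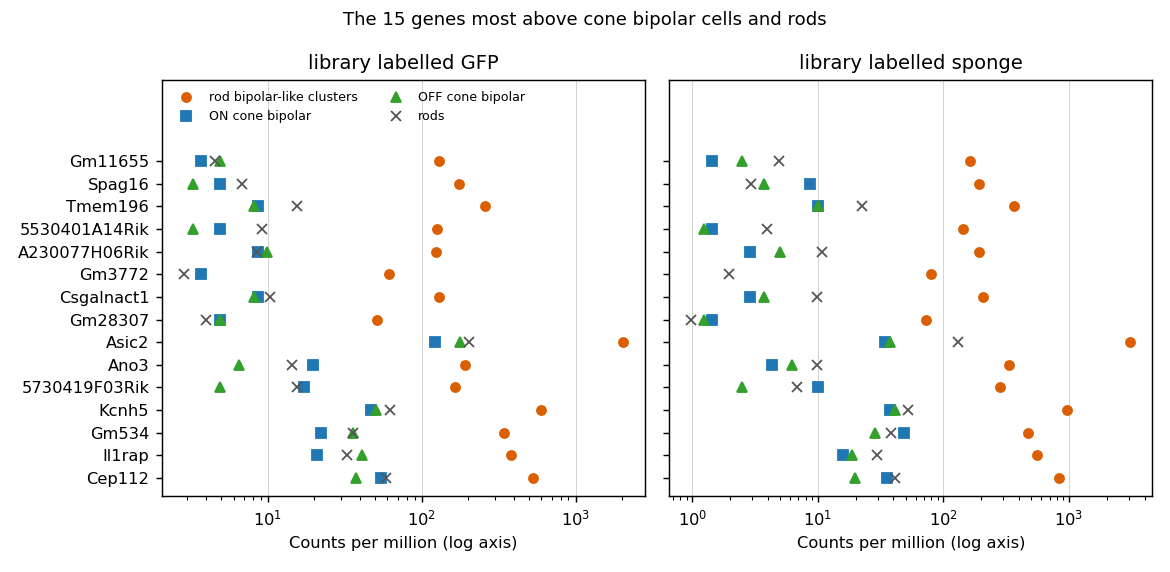
CPM (log axis) of the 15 genes most above the reference gates, in the rod bipolar-like clusters (circles), ON cone bipolar (squares), OFF cone bipolar (triangles) and rod gates (crosses), with a panel for each library; a value of 0 is not drawn. The circles lie to the right of every other symbol, from 51.2 CPM for Gm28307 to 2044 CPM for Asic2 in the GFP-labelled library.

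Genes of the dendritic signalling cascade had a median ratio above 0 in the rod bipolar-like clusters, and part of it came from genes that chose the cells. Of 19 genes of the postsynaptic ON cascade, 14 had a ratio above 0, beside 53% of all genes, none was at least 2-fold higher and Lrit3 alone was at least 2-fold lower, with a median log2 ratio of 0.57. In the gate 14 of 19 were above 0, beside 58.9% of all genes, with a median of 0.26. In the depth-matched barcodes 12 of 19 were above 0, beside 53.1% of all genes there, with a median of 0.25. All 5 members that the rule used, Grm6, Trpm1, Lrrtm4, Pcp2 and Prkca, were above 0. Without them 9 of 14 were above 0 in the clusters, with a median of 0.35, and 7 of 14 in the depth-matched barcodes, with a median of 0.08. Grm6, the glutamate receptor, stood at 228 CPM in the GFP-labelled library and 320.1 CPM in the sponge-labelled library, which is 0.49 (0.36 to 0.62) as a log2 ratio. Trpm1, the channel it gates, stood at 2589 and 3840.1 CPM, 0.57 (0.53 to 0.61). Both are rule genes, and both intervals lie above 0 for counting error alone. In the depth-matched barcodes the ratios were 0.29 (-0.20 to 0.72) and 0.25 (0.11 to 0.38).

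The receptor's scaffold and some regulators of its G protein were also higher, whereas Rgs9bp and Ric8b of the same list were lower. Gpr179, an orphan receptor that anchors the regulators, stood at 244 and 401 CPM, 0.72 (0.59 to 0.84). Nyx, the leucine-rich protein nyctalopin, stood at 26.2 and 41.2 CPM, 0.65 (0.27 to 1.05). Rgs7 and Rgs11, which speed the shut-off of Go, had ratios of 0.72 and 0.67. Among the G protein subunits, the alpha subunit Gnao1 stood at 782 and 1161 CPM, 0.57 (0.50 to 0.64), and the beta subunit Gnb3 at 462 and 828 CPM, 0.84 (0.75 to 0.93). Their depth-matched ratios were 0.55 (0.32 to 0.77) and 0.50 (0.20 to 0.78). The gamma subunit Gng13 went the other way, at 1617 and 1251 CPM, -0.37 (-0.43 to -0.31), and was lower still outside the gate, at -1.11.

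Of the remaining members, Pcp2, a modulator of Go, stood at 3853 and 5139 CPM, 0.42, with the same ratio of 0.42 in the depth-matched barcodes. Prkca stood at 4370.5 and 7386 CPM, 0.76 (0.73 to 0.79), and 0.57 (0.47 to 0.66) at matched depth. Lrit1 and Lrit2, leucine-rich proteins of photoreceptor and bipolar synapses, had ratios of 0.01 and -0.02. Lrit3, their relative that holds nyctalopin at the synapse, stood at 14.4 and 6.70 CPM, -1.09 (-1.83 to -0.39), with 0.20 (-3.21 to 1.90) at matched depth.

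The list's median depended on the scaling and on the cells. Over 13 settings of the clusters, cluster 3 alone among them, it lay between -0.01 and 0.57 and was above 0 in 12. Of the members, Rgs9bp lay between -0.997 and -0.298 and Ric8b between -1.26 and -0.168, below 0 in all 13 settings. Scaled to the summed counts of the 15 enriched genes in place of all UMIs, the list's median was -0.01 with 8 of 19 members above 0, while the median of all genes became -0.54. This scaling lowers every ratio by the same amount. In ON cone bipolar cells the list's median was 0.04 and in OFF cone bipolar cells -0.13, beside 0.10 and 0.04 for all genes. In gated barcodes outside the rod bipolar-like clusters it was -0.40, with 3 of 19 above 0. All genes there had a median of 0.08, with 9271 of 16160 above 0. In microglia or macrophages the list's median was -0.54, beside -0.04 for all genes. In all barcodes outside the gate it was -0.10, beside 0.02. In rods it was 0.20, with 13 of 17 above 0. All genes in rods had a median of 0.11, with 6766 of 11171 above 0. The median mitochondrial share was lower in the sponge-labelled library in all these cells. The median depth was higher there in all but rods, which had 1547.5 and 1334 UMIs in the GFP-labelled and sponge-labelled libraries. Whether depth had a part in these medians was not tested.

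**Figure D4:**
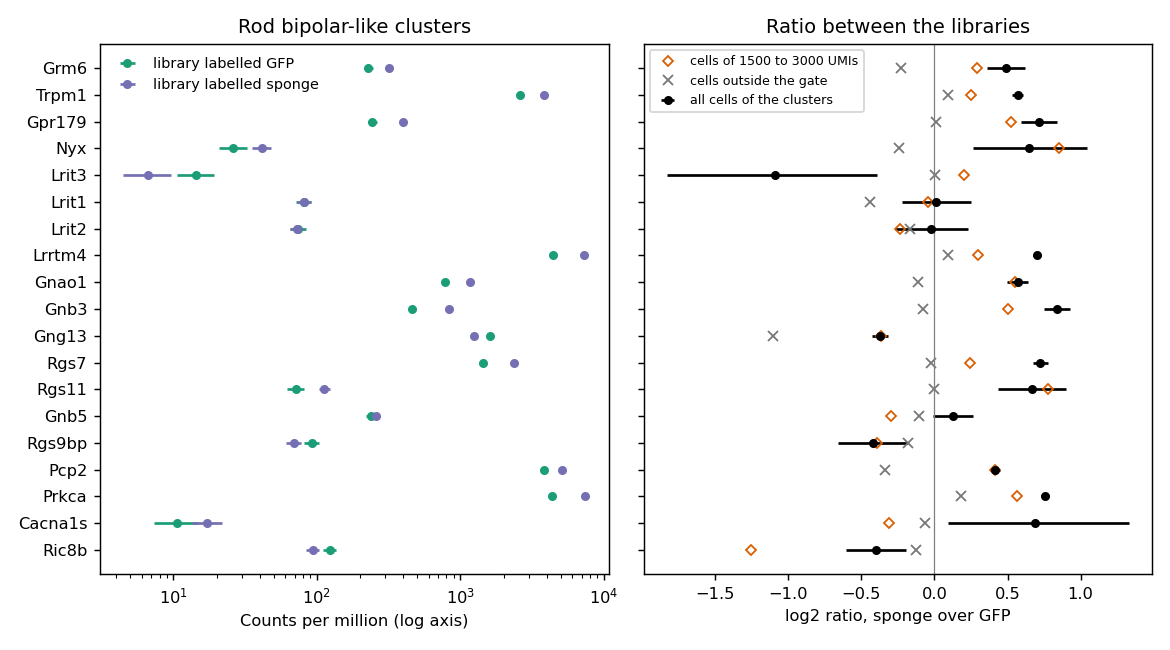
Left, CPM (log axis) of the 19 postsynaptic ON cascade genes in the rod bipolar-like clusters of each library with 95% Poisson intervals; right, their log2 ratios in all barcodes of the clusters (circles with 95% counting intervals), in the depth-matched barcodes (diamonds) and outside the gate (crosses). Gnb3 has the highest ratio, 0.84, and Lrit3 the lowest, -1.09, and the crosses run from -1.11 for Gng13 to 0.18 for Prkca.

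Transcription factors of bipolar cells split. Of 20 measured in the rod bipolar-like clusters, 9 were above 0, 1 was at least 2-fold higher and 3 at least 2-fold lower, with a median of -0.11. The shares of all genes there were 53%, 1.59% and 9.03%. Sebox, a homeobox gene and a rule gene, stood at 149 and 389 CPM, 1.38 (1.23 to 1.53), and 0.92 (0.43 to 1.36) at matched depth. Isl1 stood at 312 and 542 CPM, 0.80 (0.69 to 0.90). Bhlhe23 and Prdm8, factors needed for rod bipolar development, had ratios of 0.78 (0.50 to 1.06) and 0.58 (0.41 to 0.74). Otx2 and Crx, shared with photoreceptors, had ratios of 0.12 and -0.17. Neurod1, a factor of photoreceptors, stood at 328 and 224 CPM, -0.55 (-0.68 to -0.42), close to its -0.57 outside the gate. The 3 members at least 2-fold lower were Ebf1 at -2.81, Prdm1 at -1.57 and Nfib at -1.18, and Ebf1 was at 0.67 at matched depth.

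At the axon terminal, genes of the ribbon synapse differed little as a list. Of 28 members 20 were above 0, none was 2-fold higher and 3 were 2-fold lower, with a median of 0.08 in the clusters and -0.09 at matched depth. The shares of all genes in the clusters were 53%, 1.59% and 9.03%. Cplx3, the complexin of these ribbon synapses, stood at 405 and 635 CPM, 0.65 (0.55 to 0.75), and 0.14 (-0.23 to 0.47) at matched depth. Its relative Cplx4, which rods use, stood at 239.7 and 80.4 CPM, -1.57 (-1.76 to -1.39). The vesicle fusion gene Snap25 had a ratio of 0.31, the calcium sensor Syt1 0.04, the ribbon protein gene Ctbp2 -0.12 and the terminal's calcium channels Cacna1d and Cacna1f 0.45 and 0.03.

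Receptors for inhibitory feedback had a list median of -0.18, beside 0.04 for all genes, with 9 of 20 above 0 and 7 at least 2-fold lower. Of all genes 53% were above 0 and 9.03% at least 2-fold lower. The GABA-C subunits Gabrr1 and Gabrr2, which shape the terminal's feedback, stood at 90.8 and 165 CPM, 0.86 (0.66 to 1.07), and at 210.0 and 309 CPM, 0.55 (0.42 to 0.69). Glra1, a glycine receptor subunit, had a ratio of 0.50 (0.28 to 0.73). At matched depth these ratios were 0.24, 0.12 and 0.04. The 7 members at least 2-fold lower stood at 16.9 CPM or less in the GFP-labelled library, such as Gabrb1 at 16.9 and 5.51 CPM, Gabra2 at 10.9 and 3.83 CPM and Glra2 at 4.99 and 1.44 CPM.

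Calcium and channel genes had list medians below 0. Of all genes in the clusters 53% were above 0, 1.59% at least 2-fold higher and 9.03% at least 2-fold lower. Among 23 calcium buffers and sensors 8 were above 0, none was 2-fold higher and 7 were 2-fold lower, with a median of -0.44 in the clusters and 0.40 at matched depth. Cabp5 stood at 511 and 951 CPM, 0.90 (0.81 to 0.98), and the rule gene Car8 at 529 and 1027 CPM, 0.96 (0.88 to 1.04). Scgn, which rod bipolar cells lack, stood at 42.4 and 12.0 CPM, -1.82 (-2.32 to -1.35). Of 21 voltage-gated and leak channels 8 were above 0, none was 2-fold higher and 7 were 2-fold lower, with a median of -0.53. Kcnma1, the BK potassium channel, stood at 1505 and 2154 CPM, 0.52 (0.47 to 0.57), with 0.10 (-0.08 to 0.28) at matched depth.

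Among genes at least as high in the rod bipolar-like clusters as outside the gate, 12 were named for the highest ratios, with the level compared in the library where the gene is higher. Besides Cabp5 and the rule genes Sebox and Car8 they included Qpct, a glutaminyl cyclase, at 327 and 653 CPM, 0.999 (0.90 to 1.10). Trnp1, a nuclear regulator, stood at 579 and 1118 CPM, 0.95 (0.87 to 1.03), and Kcne2, a potassium channel subunit, at 57.1 and 121 CPM, 1.09 (0.84 to 1.34). Dbp, a clock-controlled transcription factor, stood at 108 and 218 CPM, 1.01 (0.83 to 1.20). At matched depth Qpct, Trnp1, Kcne2 and Dbp had ratios of 0.67, 0.41, 1.12 and 0.62. In the gated barcodes outside the clusters most were below 0, with Sebox at -0.30, Car8 at -0.61, Qpct at -0.30, Trnp1 at -0.38 and Cabp5 at -0.40. The rest of the 12 were Gm45218, Nhlrc1, Nsmce3, St6galnac4 and Apcdd1, between 1.07 and 1.61, and Apcdd1 was at -0.17 at matched depth. Nsmce3 was above its level outside the gate only in the sponge-labelled library, at 27.3 against 20.5 CPM, and below it in the other, at 9.67 against 13.5 CPM.

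Genes of other cells were nearly all lower in the sponge-labelled library within the same clusters. Rod photoreceptor genes were below 0 in 19 of 20, with 9 at least 2-fold lower and a median of -0.90, and summed to 15080 CPM in the GFP-labelled library and 7863 CPM in the sponge-labelled library. Of all genes in the clusters, 53% were above 0 and 9.03% at least 2-fold lower. Over 13 settings, cluster 3 alone among them, the median of the rod genes lay between -1.48 and -0.47. The rod G protein subunit Gngt1 stood at 1812 and 636 CPM, -1.51 (-1.58 to -1.44). Genes of cone bipolar types had a median of -1.02 with 3 of 17 above 0. None of 16 Müller glia genes, 10 amacrine genes, 10 microglia and macrophage genes and 10 RPE and melanocyte genes was above 0, with medians of -0.88, -1.29, -0.67 and -1.02. Vascular and fibroblast genes had a median of -1.39 with 0 of 9 above 0. These lists of other cells and the postsynaptic ON cascade thus had medians on opposite sides of 0 in the same barcodes.

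At matched depth these medians were nearer to 0, or above 0 for RPE and melanocyte and for vascular and fibroblast genes. They were -0.82 for amacrine genes, -0.38 for microglia and macrophage genes, -0.47 for rod genes, -0.30 for cone bipolar genes, -0.32 for Müller glia genes, 0.28 for RPE and melanocyte genes and 0.35 for vascular and fibroblast genes. In the gate they were -0.33 for rod genes and 0.17 for Müller glia genes, with 10 of 16 above 0, beside 58.9% of all genes. The depth of the barcodes moved with the levels of these lists, and its part in the ratios was not tested. The share of rod genes in the median barcode of the clusters was 1.45% in the GFP-labelled library and 0.651% in the sponge-labelled library.

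**Figure D5:**
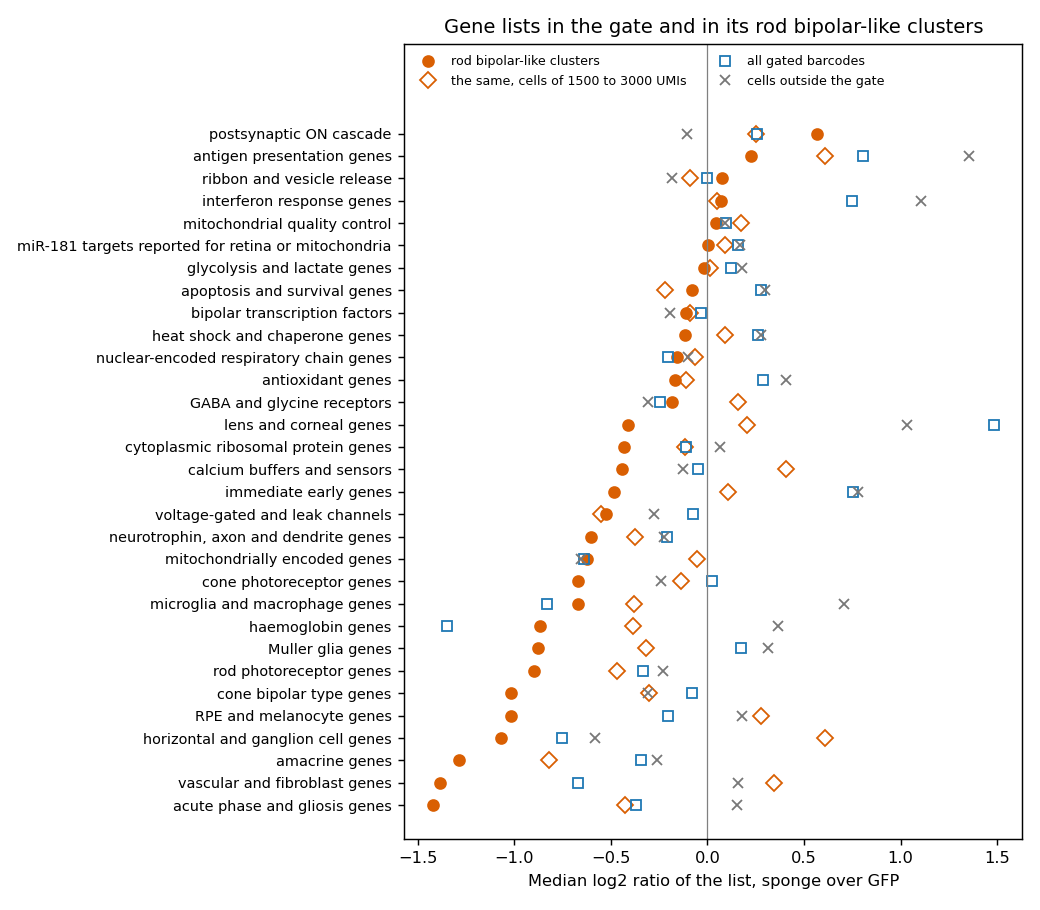
Median log2 ratio, sponge-labelled library over GFP-labelled library (horizontal axis), of the gene lists in the rod bipolar-like clusters (filled circles), in their depth-matched barcodes (open diamonds), in all gated barcodes (squares) and outside the gate (crosses). The list of sex-linked genes, with 1 measured member in the clusters, is not drawn. The postsynaptic ON cascade has the highest median in the clusters, 0.57, and the acute phase and gliosis list the lowest, -1.42.

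Immune genes were mostly higher over the gate, whereas in the rod bipolar-like clusters their shares above 0 were near that of all genes. Antigen presentation genes were above 0 in 19 of 20 over the gate, with a median of 0.81, and all 20 were above 0 outside it, with a median of 1.36. Of all genes in the gate, 58.9% were above 0. In the clusters 10 of 18 were above 0, beside 53% of all genes, with 2 at least 2-fold higher, 1 at least 2-fold lower and a median of 0.23. H2-Q7, a class I molecule, stood at 4.99 and 21.5 CPM in the clusters, 2.07 (1.33 to 2.98), with 1.84 in the gate and 1.57 outside it. H2-K1 stood at 41.5 and 80.7 CPM, 0.96 (0.67 to 1.26), and Psmb9, an immunoproteasome subunit, at 5.93 and 16.3 CPM, 1.43 (0.71 to 2.27). The class II genes of the list were below 0, with H2-Aa at 14.7 and 6.94 CPM, -1.07, H2-Ab1 at -0.28 and H2-Eb1 at -0.20. Interferon response genes had a median of 0.75 in the gate, with 26 of 31 above 0, and of 0.07 in the clusters, with 15 of 27.

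Stress lists differed from each other. Acute phase and gliosis genes had 12 of 17 at least 2-fold lower in the clusters, with a median of -1.42, and of -0.37 in the gate. Of all genes in the clusters, 9.03% were at least 2-fold lower. Lcn2, the lipocalin of reactive glia and other cells, stood at 125 and 2.87 CPM in the clusters, -5.39 (-6.41 to -4.62), and at -3.72 outside the gate. The metallothionein Mt1 stood at 755 and 371 CPM, -1.03 (-1.12 to -0.93). Immediate early genes, which respond to activity and to dissociation, were above 0 in 20 of 24 over the gate, with a median of 0.75, and in 4 of 21 in the clusters, with a median of -0.49. Of all genes, 58.9% were above 0 in the gate and 53% in the clusters. Fos stood at 239 and 157 CPM in the clusters and at 569.7 and 939 CPM in the gate. The gate and the clusters thus lay on opposite sides of 0 for this list.

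Mitochondrially encoded genes were lower in sponge-labelled barcodes. All 13 were below 0 in the clusters, with a median of -0.63, and they summed to 119008 and 82603 CPM. Outside the gate the median was -0.66, and at matched depth -0.05 with 4 of 13 above 0. Of all genes, 53% were above 0 in the clusters and 53.1% at matched depth. mt-Nd4l, a complex I subunit, stood at 1375 and 390.0 CPM, -1.82 (-1.90 to -1.74), with -1.72 outside the gate, so this gene differed as much in other cells. Nuclear-encoded respiratory chain genes had a median of -0.16, with 40 of 92 above 0, and mitochondrial quality control genes 0.05, with 15 of 25. Glycolysis and lactate genes had a median of -0.02, with 11 of 25 above 0. One of them, Hk2, the hexokinase of photoreceptors and other tissues, stood at 144 and 36.1 CPM, -1.99 (-2.27 to -1.73), with -2.08 (-3.85 to -0.97) at matched depth and -0.83 outside the gate.

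The reported targets of miR-181 had a median close to that of all genes. Of 15 chosen for the retina or mitochondria, 8 were above 0 in the rod bipolar-like clusters, with a median of 0.00 beside 0.04 for all genes. None was at least 2-fold higher and 1, Ppargc1a, was at least 2-fold lower. Of all genes there, 53% were above 0, 1.59% at least 2-fold higher and 9.03% at least 2-fold lower. In the gate 12 of 15 were above 0, beside 58.9% of all genes, with a median of 0.16 beside 0.08. Coq10b, of coenzyme Q handling, stood at 38.1 and 54.8 CPM, 0.52 (0.20 to 0.86), with -0.04 (-1.63 to 1.03) at matched depth and 0.73 outside the gate. Nrf1, Mcl1 and Prdx3 had ratios of 0.15, 0.02 and 0.28 with intervals that include 0.

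Among the genes with printed sites, Xiap, an inhibitor of caspases with a pair of seed matches, stood at 283 and 154 CPM in the clusters, -0.88 (-1.02 to -0.73). It was -0.87 (-1.53 to -0.32) at matched depth and -0.31 outside the gate. Bcl2, an anti-apoptotic gene, stood at 20.6 and 10.3 CPM, -0.99 (-1.59 to -0.42), and 0.53 (-1.57 to 1.84) at matched depth. Sirt1 had a ratio of -0.02 (-0.35 to 0.32) and Tfam of -0.01 (-0.56 to 0.56). These directions turn if the labels are exchanged. Ppargc1a, a regulator of mitochondrial biogenesis, stood at 51.8 and 17.7 CPM, -1.54 (-1.96 to -1.14), with -1.82 (-5.20 to -0.25) at matched depth.

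Genes with the seed's letters in an annotated 3′ UTR were compared with the rest. Of 20869 genes with such a UTR, 3441 held TGAATGT. In the rod bipolar-like clusters 2299 measured genes with a match had a median log2 ratio of -0.00 and 9423 without one had 0.05, a difference of -0.05. The difference was -0.07 in the gate and -0.07 outside it. Genes with 2 or more matches lay -0.07 from those without one in the clusters.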

How the data were processed

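The authors deposited raw UMI counts per gene and barcode for both libraries, with no normalization. Cell Ranger 7.0.0 and the mouse build mm10 are named per the submitters' processing notes. How introns, strand and cell calling were handled is not stated. Total counts were 123040365 UMIs in 39461 barcodes of the GFP-labelled library and 132067896 in 23267 of the sponge-labelled library. Barcodes with at least 500 UMIs, at least 300 genes and at most 25% mitochondrial UMIs were kept. No doublets were removed.

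Gated barcodes were clustered in python 3.11 with scanpy 1.11.5 and igraph 0.11.9 (10000 UMIs per cell, log scale, 2000 variable genes, 30 principal components, 15 neighbours, Leiden resolution 0.5), with numpy 2.4.6, scipy 1.17.1 and pandas 2.3.3. Counts were summed per library and scaled to CPM. A gene was measured with at least 20 counts over both libraries, and log2 ratios had 0.5 added to both counts. Intervals are exact Poisson for CPM, Clopper-Pearson for shares and exact binomial for ratios, and cover counting error only. With 1 library per group no test was run. Thinning to 1000 UMIs left out 35 and 23 gated barcodes, 17 and 9 of them rod bipolar-like. The calculation was tested on simulated data.

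Reference gates were ON cone bipolar (336 and 160 barcodes), OFF cone bipolar (216 and 139), rods (1010 and 553) and microglia or macrophages (1197 and 776). Named genes were the 12 highest and 12 lowest ratios, ranked by whichever interval bound lies closer to 0. They needed 50 counts or more, 20 CPM or more in 1 library and, where the gene is higher, a level no lower than outside the gate. To these were added the 6 at either end without that last condition, the 15 enriched genes and members of 32 lists. The gate, the lists and the alternatives were chosen with earlier results of these data known. Coordinates and 3′ UTRs are from GENCODE M21 and miRNA and promoter sequences from RefSeq, both on GRCm38. Some genes of these lists are counted in the list values but not reported here by name.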

Additional observations from a re-analysis of the deposited data

How the results depend on the processing

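No paired analysis was possible because each group is 1 library and barcodes are not assigned to mice. The share of kept barcodes in the gate, 9.32% and 8.41% in the GFP-labelled and sponge-labelled libraries, was 8.78% and 9.61% at 1000 UMIs or more and at most 10% mitochondrial, so that the order reversed. It was 9.72% and 8.40% with cells thinned to 1000 UMIs, 14.2% and 15.8% with 2 positive genes or more, 6.11% and 4.76% with 4 or more, and 35.8% and 26.3% with no exclusion genes. Genes at least 2-fold higher and lower in the gate, 550 and 538, numbered 2475 and 2948 with 1 count or more, 362 and 260 with 50 or more, and 261 and 284 thinned. The higher ones numbered 349 with cells weighted equally, 286 with 4 positive genes and 193 without the 10% of cells with the most UMIs. In the rod bipolar-like clusters, 209 and 1184, they numbered 2085 and 4419 with 1 count or more and 77 and 657 with 50 or more. They numbered 36 and 2894 when scaled to the 15 enriched genes, which moved the median of all genes to -0.54; other scalings kept it between -0.06 and 0.06. The lower ones numbered 624 thinned. The higher ones numbered 437 at 1000 UMIs or more and at most 10% mitochondrial, and 773 at 1500 to 3000 UMIs. The alternatives of the clusters, of matched depth and of the enriched genes were added after seeing the data. Sign changes are given for ratios and list medians that were at least 2-fold from no difference. In the gate these were Cbr2 thinned (-0.16) and Krt13 with 4 positive genes (-0.00337). Without the 10% of cells with the most UMIs they were Igha (1.501), Igkc (2.51), Epgn (-0.51), Egln3 (-0.80), Aldh1a3 (-0.32), 1600014C10Rik (-0.30), Areg (-0.64) and Cbr2 (-0.85). In the clusters only they were the lens and corneal list (-0.41), Igha (1.11), Igkc (2.71), Egln3 (-0.26), 1600014C10Rik (-0.0735), Cbr2 (-2.00), Prb1 (-0.10) and Krt15 (-0.41). In the clusters, all at 1500 to 3000 UMIs, they were the lists of horizontal and ganglion (0.61), RPE and melanocyte (0.28) and vascular and fibroblast genes (0.35), and Apcdd1 (-0.17), Adamts9 (0.36), Rgs5 (0.35), Mgp (0.54), Ebf1 (0.67) and Lrit3 (0.20). The cause was not tested. Smaller medians also changed sign at 1500 to 3000 UMIs, such as calcium buffers and sensors (-0.44 to 0.40) and immediate early genes (-0.49 to 0.11). Over all alternatives, 299 list medians of the clusters moved by no more than the typical counting error of their members, 71 by more and 3 reversed; in the gate 170, 108 and 1. Of the ratios of named genes, 708 of the clusters stayed within their counting interval, 267 did not and 6 reversed. In the gate these were 118, 137 and 17. The ON cascade without the genes the rule used is an alternative added after seeing the data.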

Other observations

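Over the whole gate, keratin and immunoglobulin genes were among the most extreme ratios. Krt12, a corneal keratin, stood at 247 CPM in the GFP-labelled library and 1000.4 CPM in the sponge-labelled library, and Epgn, an epithelial growth factor gene, at 5.99 and 37.2 CPM. In the rod bipolar-like clusters Krt12 stood at 20.6 and 47.4 CPM and Epgn at 1.25 and 1.20 CPM. Igkc, an immunoglobulin chain of plasma cells, was lower in the gate, at 94.3 and 16.3 CPM, but higher in the clusters, at 1.87 and 13.2 CPM, and outside the gate, at 24.9 and 637 CPM.

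Among the lowest ratios in the rod bipolar-like clusters, Mctp1, a membrane calcium sensor gene, stood at 72.7 and 5.51 CPM, -3.70 (-4.41 to -3.10), and at 88.8 and 30.6 CPM outside the gate. Fgf2os, an antisense gene at Fgf2, stood at 21.2 and 2.63 CPM in the clusters and at 18.2 and 4.61 CPM outside the gate. Cartpt, a neuropeptide gene, stood at 90.5 and 28.5 CPM in the clusters and at 85.6 and 46.6 CPM outside it. Ptprn, a protein of secretory granules, stood at 70.8 and 23.7 CPM and at 69.7 and 38.0 CPM.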
